A study of Homo sapiens with 4 samples.

Results

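The transcripts described here come from 9 genes for large cytoskeletal and motor proteins, FLNA, MYH9, TLN1, SPTAN1, SPTBN1, PLEC, AHNAK, DYNC1H1 and MACF1, and the measurement is the binding of IGF2BP2 to them in Jurkat cells, an established T-ALL cell line. The study made 2 IGF2BP2 iRIP libraries and 2 input libraries from Jurkat cells in standard culture with no treatment named in the labels, and the peak lists of the 2 iRIP libraries were analysed here. In iRIP-seq, RNA is crosslinked to protein by UV light, IGF2BP2 is pulled down with an antibody, and the attached RNA is sequenced. A peak is a stretch in which the sequenced tags pile up above a simulated level for that gene, and its height is given in tags. Members were found by their Ensembl identifier, and a peak was counted when its main region, the one holding the largest share of its length, was coding sequence (CDS), UTR, noncoding exon or intron on the strand of the gene. By this rule the 9 genes, of 20428 identifiers with such a sense peak in either list, held 453 sense peaks of 145715 listed peaks in replicate 1 and 513 of 137934 in replicate 2. All sense peaks of 8 genes touched the RefSeq interval of the gene, and of the 4 AHNAK peaks 2 did and 2 lay beyond its 5′ end.

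IGF2BP2 is an RNA-binding protein that reads N6-methyladenosine and is known to keep bound mRNAs stable and translated. The proteins encoded by these genes build and pull on the cell's scaffold. FLNA, MYH9 and TLN1 act on actin: filamin A crosslinks filaments, MYH9 is the heavy chain of a nonmuscle myosin, and talin ties integrins to actin. SPTAN1 and SPTBN1 are the spectrin chains of the network under the plasma membrane, PLEC and MACF1 join different filament systems to each other, AHNAK is a giant scaffold protein at the membrane, and DYNC1H1 is the heavy chain of the dynein motor that walks along microtubules. Their coding sequences are unusually long, so they offer many places at which a peak along an mRNA can be located.

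The replicates are 2 libraries of the same cell line, and the labels do not say whether they came from separate cultures. The lists begin at 4 tags (replicate 1) and 5 tags (replicate 2), they give no number of reads, and heights were not adjusted for depth. Input values were not analysed here, so that more RNA of a gene and more binding per RNA cannot be told apart, nor can fewer expressing cells and less RNA per cell. Of 8 T-lineage genes (CD2, CD3D, CD3E, CD247, CD5, CD7, LCK and ZAP70), 7 had a sense peak in both lists, against 59.5% of all identifiers, and 6 had a coding peak in both, against 17.1%. Here and below, such shares are of all 20428 identifiers, of which 6389 had a coding peak in either list. CD247 had 0 and 1 coding peaks. CD2 had 2 sense peaks in replicate 1, of which 1 was coding, and 0 sense peaks in replicate 2. With 1 condition and 2 libraries no test between groups was possible, and the values below are descriptions. Wilson intervals (95%) cover counting error only, because copies made by PCR are not independent molecules and peaks of a gene are not independent of each other.

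Sequence was at hand for the few exonic peaks that fall in a RefSeq promoter window (GRCh38.p14), on either strand. The stretches below, each 30 bases, show what such a peak reads: the start of the SPTBN1 coding sequence, a later SPTBN1 coding peak, a DYNC1H1 coding peak and the 5′ UTR peak of SPTAN1 that both libraries shared. Capitals mark GGAC, the core of the m6A consensus, and CATT, CATA or CATC, which were searched on the transcribed strand.
SPTBN1 start codon, chr2:54558769-54558798, plus strand: gccgggCATAatggaattgcagaGGACgtc
SPTBN1 coding peak, chr2:54558801-54558830, plus strand: gtatctccgggccgctgtcgccggcgtaca
DYNC1H1 coding peak, chr14:102039001-102039030, plus strand: gggaatttcagctccgtttgcgtcagctgg
SPTAN1 5′ UTR peak, chr9:128552601-128552630, plus strand: cggagtgaacggtgtggagcggaggccgcg
The first stretch lies in a wide peak of replicate 2 (chr2:54558700-54558900, 6.25 tags) that runs from the 5′ UTR into the CDS, and the atg at 54558779 is where the listed share of 5′ UTR ends. In replicate 1 the same stretch held a 5′ UTR peak of 4 tags (chr2:54558700-54558750) and a coding peak of 5 tags (chr2:54558800-54558850), from which the second sequence was read. The DYNC1H1 peak (chr14:102039000-102039050) had 5 tags in replicate 2 alone. The SPTAN1 peak (chr9:128552600-128552700) was 11.5 tags high in replicate 1 and 15.5 in replicate 2. The wide SPTBN1 peak held 1 GGAC and 1 CATA in its 200 bases, and the 50 bases of the SPTBN1 and DYNC1H1 coding peaks held none of the 4 words. Other 5′ UTR peaks of 50 bases also had sequence. That of DYNC1H1 (chr14:101964550-101964600, 6 tags, replicate 1) held 1 GGAC. Those of SPTBN1 at chr2:54558700-54558750 (replicate 1) and chr2:54456300-54456350 (replicate 2) held none of the 4 words. Among coding peaks of the shortest length whose 50 bases lay wholly in such a window, GGAC was found in 27.0% of 100 in replicate 1 and in 27.8% of 108 in replicate 2, and any of CATT, CATA and CATC in 24.0% and 20.4%.

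Coding sequence held most of the peaks on these genes. In replicate 1, 291 of 453 sense peaks (64.2%, 95% Wilson interval 59.7% to 68.5%) lay mainly in CDS, and in replicate 2, 349 of 513 (68.0%, 63.9% to 71.9%). The mean share was 66.1% ± 2.68 (SD, n = 2). Sense peaks of all genes were coding in 19.9% (19.6% to 20.2%) of cases in replicate 1, and in replicate 2 in 25.6% (25.2% to 25.9%). Most listed peaks are low and many low peaks are intronic, so the share was also taken among peaks of at least 10 tags. On the 9 genes 51 of these 82 peaks were coding in replicate 1 (62.2%, 51.4% to 71.9%) and 141 of 191 in replicate 2 (73.8%, 67.2% to 79.5%), against 58.5% (56.4% to 60.6%) and 59.9% (58.7% to 61.1%) for all genes. In replicate 1 the interval of the 9 genes thus included the value for all genes at that height, and in replicate 2 it lay above it. This is no test, because peaks of a gene are not independent, and MYH9 and MACF1 gave 38 and 45 of the 191 peaks. These genes carry long coding sequences, and the share of CDS was not adjusted for the length of each region.

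A sense peak in both lists was present on 9 of 9 genes, against 59.5% of all identifiers, and a coding peak in both lists on 8 of 9, against 17.1%. A coding peak of at least 10 tags in both lists was present on 7 of 9 (background 2.65%), with PLEC and AHNAK as the exceptions. At least 20 coding peaks in both lists were present on 7 of 9 (0.289%), where PLEC and AHNAK again fell short. A long coding sequence gives more room for peaks, and these backgrounds are not matched on length or RNA level. They also include identifiers whose sense peaks all lie outside CDS. Of the 20428 identifiers, 6389 had a coding peak in either list and 3484 in both.

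**Figure D1:**
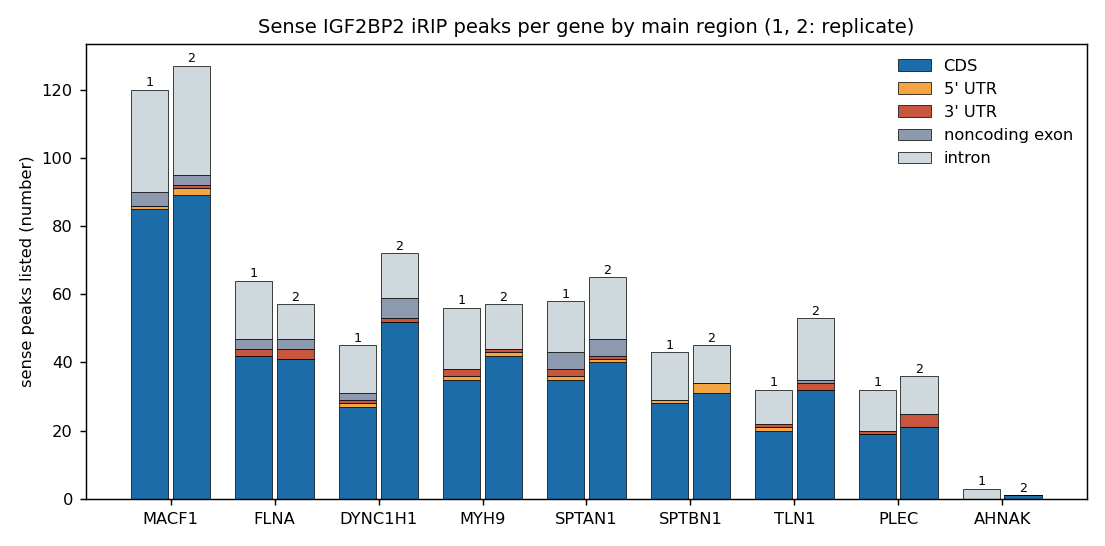
Number of sense peaks on each gene (vertical axis) by main region (colours), with replicate 1 as the left bar and replicate 2 as the right bar of each gene, ordered by the mean number of coding peaks. MACF1 stands highest with 120 and 127 sense peaks and AHNAK lowest with 3 and 1.

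Among the genes for actin crosslinking and contraction, FLNA had 42 coding peaks in replicate 1 and 41 in replicate 2, a mean of 41.5 ± 0.707 (SD, n = 2). FLNA ranked 6 of 4601 identifiers with a coding peak in replicate 1 and 12 of 5272 in replicate 2, where the median identifier had 2. MYH9, the nonmuscle myosin heavy chain, had 35 and 42 coding peaks. Their heights were the greatest of the 9 genes, with medians of 8.2 and 13.3 tags, and 14 and 33 of the peaks reached 10 tags. TLN1, the integrin linker, had 20 and 32 coding peaks with median heights of 5.75 and 6 tags, and 1 and 7 reached 10 tags. The ratio of coding peaks in replicate 2 to those in replicate 1 was thus 0.976 for FLNA, 1.2 for MYH9 and 1.6 for TLN1.

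Of the spectrin chains, SPTAN1 had 35 coding peaks in replicate 1 and 40 in replicate 2, and SPTBN1 had 28 and 31. The median heights were 5.5 and 8.17 tags for SPTAN1 and 6.38 and 10.3 tags for SPTBN1. Spectrin chains pair in the protein network, and the number of coding peaks was lower on SPTBN1 than on SPTAN1 in each library.

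The linkers of filament systems differed most from each other. MACF1, the giant protein that joins actin and microtubules, had 85 coding peaks in replicate 1 and 89 in replicate 2, and ranked 1 among all identifiers in each list. PLEC, which crosslinks intermediate filaments, had 19 and 21 coding peaks, with median heights of 4 and 6 tags, at or close to the floor of each list. Its highest coding peak reached 6 tags (replicate 1) and 11.5 tags (replicate 2). DYNC1H1, the dynein heavy chain, had 27 coding peaks in replicate 1 and 52 in replicate 2, a ratio of 1.93 and the widest spread among the 8 genes with coding peaks in both lists. Its median heights were 5 and 6 tags.

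AHNAK stood apart. It had no coding peak in replicate 1 and 1 in replicate 2, at chr11:62522500-62522550 with 5 tags, the lowest height that list holds, and without an overlapping peak in replicate 1. Its other sense peaks were 3 intron peaks of 4 tags in replicate 1, none of them overlapped in replicate 2. AHNAK is a giant gene too, with a RefSeq interval of 113 kb, yet each of the other 8 genes had between 19 and 85 coding peaks in replicate 1 and between 21 and 89 in replicate 2. Its RNA level in these cells was not analysed here, and its part in the low number of peaks was not tested.

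By the mean number of coding peaks the order was MACF1 (87), FLNA (41.5), DYNC1H1 (39.5), MYH9 (38.5), SPTAN1 (37.5), SPTBN1 (29.5), TLN1 (26), PLEC (20) and AHNAK (0.5). MACF1 and FLNA, SPTAN1 and SPTBN1, and PLEC and AHNAK did not overlap in the values of their libraries, whereas the other neighbours in this order overlapped and cannot be ranked. The order was another one per length. Per 10 kb of RefSeq gene length, introns included, FLNA had 15.7 to 16.1 coding peaks and TLN1 5.67 to 9.08. SPTAN1 had 4.32 to 4.93, DYNC1H1 2.94 to 5.66, MYH9 3.28 to 3.94 and PLEC 3.08 to 3.41. MACF1 had 2.11 to 2.21, SPTBN1 1.30 to 1.44 and AHNAK 0 to 0.0883. FLNA, the shortest gene at 26.1 kb, thus led per length, and MACF1, the longest at 403 kb, came near the end. Coding length was not used here, so a density per base of coding sequence is not given.

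Between the outermost coding peaks of a gene, 7 to 10 of 10 equal parts held coding peaks in 8 of the 9 genes. The same peaks set this stretch, so its first and last parts each hold a peak in at least 1 library by construction. The number of filled parts can also rise with the number of peaks, and it does not show how evenly they lie. On SPTBN1, 7 parts were filled in each library, yet the seventh alone held 13 of 28 and 13 of 31 coding peaks. MYH9, SPTBN1, PLEC and MACF1 had none in a long 5′ part of the RefSeq interval. On FLNA (identifier ENSG00000196924.19, chromosome X, minus strand) they ran over 22.1 kb in replicate 1 (chrX:154348900-154371000) and 22.2 kb in replicate 2 (chrX:154348950-154371150), about 85% of the RefSeq length (84.7% and 85.0%). Neighbouring coding peaks of FLNA started a median of 300 nt apart in replicate 1 and 250 nt in replicate 2, the closest spacing of the genes, and the widest gap was 3.4 and 4.15 kb. With the stretch between the outermost coding peaks of either library divided into 10 equal parts, those of FLNA fell in 10 parts in replicate 1 and in 9 in replicate 2. Both libraries had 8 in the third part, the most or equal most, and the eighth part held 7 and 8.

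**Figure D2:**
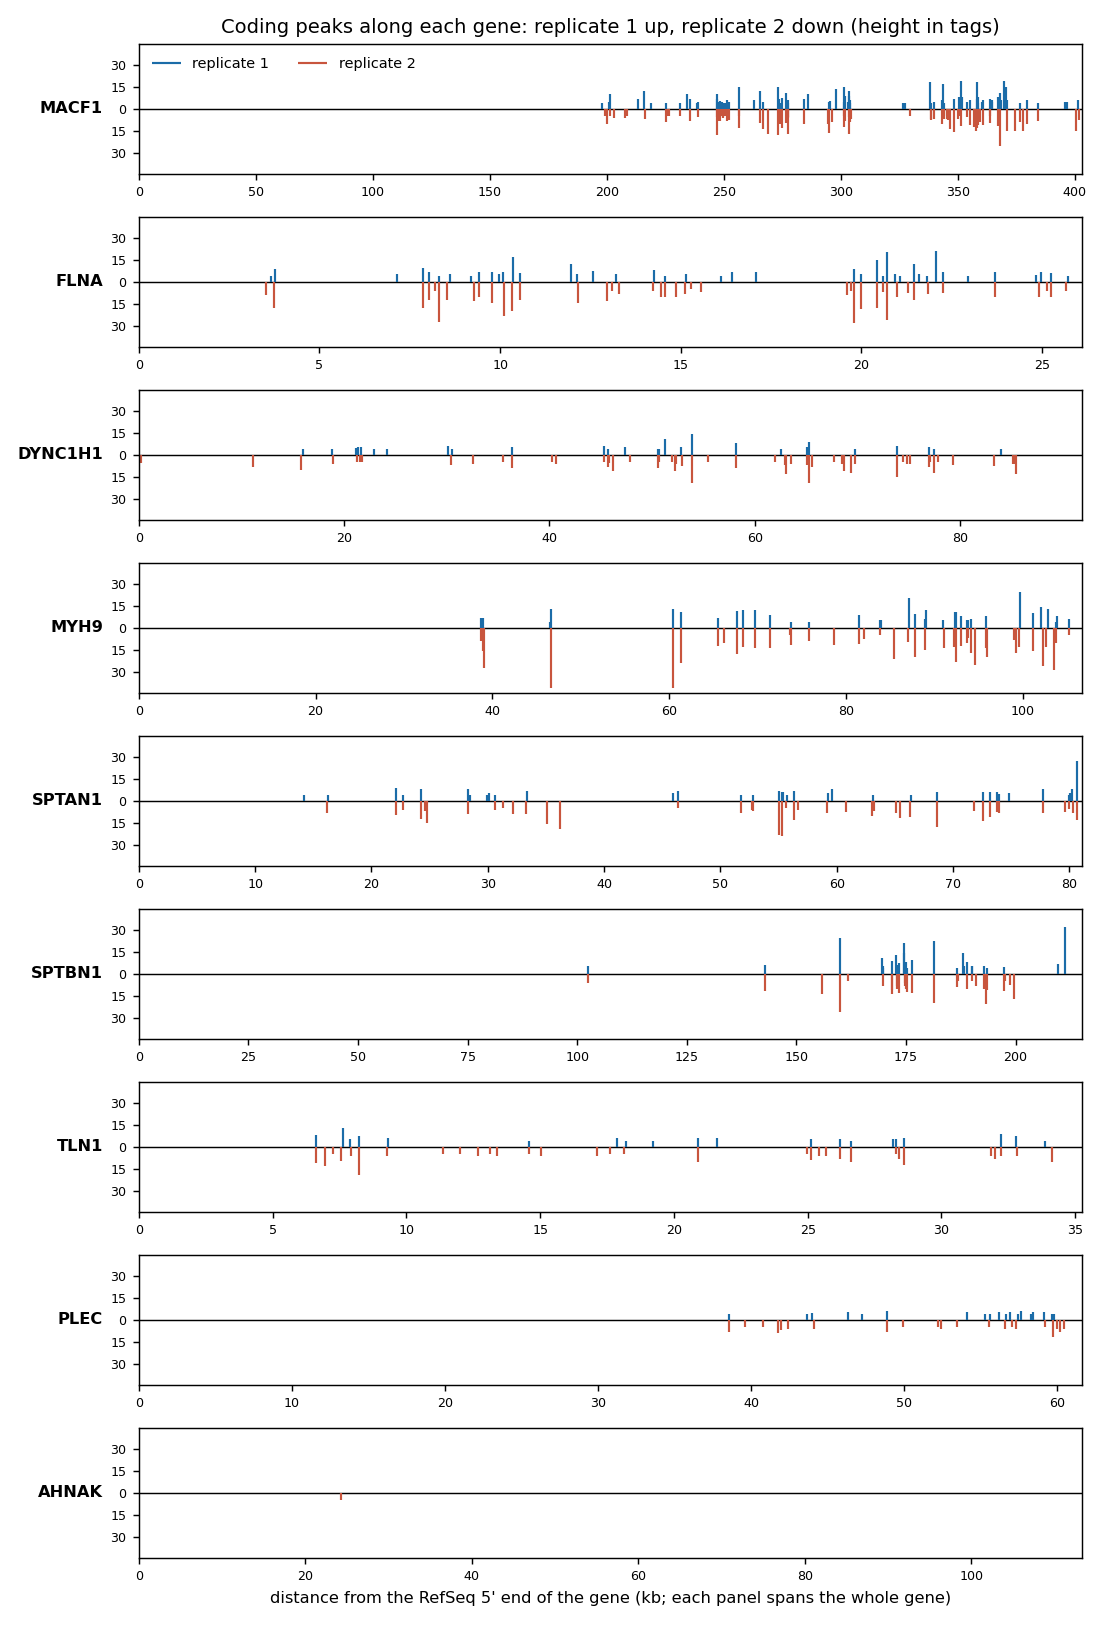
Position of each coding peak as its distance in kb from the RefSeq 5′ end of the gene (horizontal axis, each panel one whole gene at its own scale), with the height in tags drawn upwards for replicate 1 and downwards for replicate 2. Coding peaks of FLNA reach over most of the gene, those of MACF1 begin 198 kb (replicate 1) and 199 kb (replicate 2) from the 5′ end, and AHNAK has a single one.

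TLN1 (ENSG00000137076.21, chromosome 9, minus strand) had coding peaks over 27.3 and 27.6 kb, 77.5% and 78.3% of its RefSeq length, with median spacings of 1000 and 500 nt. They fell in 7 and 9 of 10 parts, and the ninth part held none in either library. MYH9 (ENSG00000100345.22, chromosome 22, minus strand) had them over 66.7 and 66.5 kb, between 38.7 and 105 kb from the 5′ end. The third part held none in either library. With the stretch divided into 3, the 3′ section held 21 of 35 and 24 of 42. The 3′ side of MYH9 was thus the more densely covered on the genome scale in both libraries, and the positions of its exons were not used here.

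On SPTAN1 (ENSG00000197694.18, chromosome 9, plus strand) coding peaks spanned 66.5 and 64.6 kb and fell in 9 and 10 parts, with 15 of 35 and 18 of 40 in the 3′ section of 3. SPTBN1 (ENSG00000115306.16, chromosome 2, plus strand) had the largest share of its coding peaks in a single part among the 8 genes with coding peaks in both lists. Only 1 coding peak of each library lay in the 5′ section of 3, and these were the coding peak and the wide peak at the start of the coding sequence described above. The seventh part held 13 of 28 coding peaks in replicate 1 and 13 of 31 in replicate 2, and the widest gap was 40.3 and 40.4 kb. Within 5 kb of that part (chr2:54628050-54633050) there were 10 and 12 coding peaks, of which 7 and 10 lay wholly in CDS.

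DYNC1H1 (ENSG00000197102.14, chromosome 14, plus strand) had coding peaks over 68.1 kb in replicate 1 and 85.4 kb in replicate 2, 74.1% and 92.9% of its RefSeq length. The extra peaks of replicate 2 were in the later parts for the most part. The 5′, middle and 3′ sections held 7, 11 and 9 coding peaks in replicate 1 and 7, 19 and 26 in replicate 2. PLEC (ENSG00000178209.16, chromosome 8, minus strand) had coding peaks over 21.25 and 21.95 kb, the 3′ part of the gene, starting 38.6 kb from the 5′ end in both libraries. In the last 5 kb window, chr8:143916250-143921250, there were 11 coding peaks in replicate 1 and 9 in replicate 2, all of them wholly in CDS, and 2 of each were overlapped in the other library.

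MACF1 (ENSG00000127603.31, chromosome 1, plus strand) had coding peaks over 204 and 202 kb, 50.5% and 50.2% of its RefSeq length, and all 10 parts held some in both libraries. The third part held 15 and 18 and the eighth part 15 and 20, the highest numbers in each list, with the fewest in the tenth part (4 and 3). The densest 5 kb was the same in both lists, chr1:39331200-39336200, with 12 and 14 coding peaks, of which 11 and 13 lay wholly in CDS. The heights there were at most 10 and 18 tags, and 5 of the peaks in each library were overlapped in the other. RefSeq lists 3 start sites for MACF1 in the table used here, at 39084167, 39204695 and 39409073. A 5′ UTR peak of 4 tags (chr1:39409850-39409900, replicate 1) lay just past the last of them, and 5′ UTR peaks of 5 and 9 tags (chr1:39105450-39105500 and chr1:39105550-39105600, replicate 2) lay beyond the first. None of the 3 was overlapped in the other library.

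**Figure D3:**
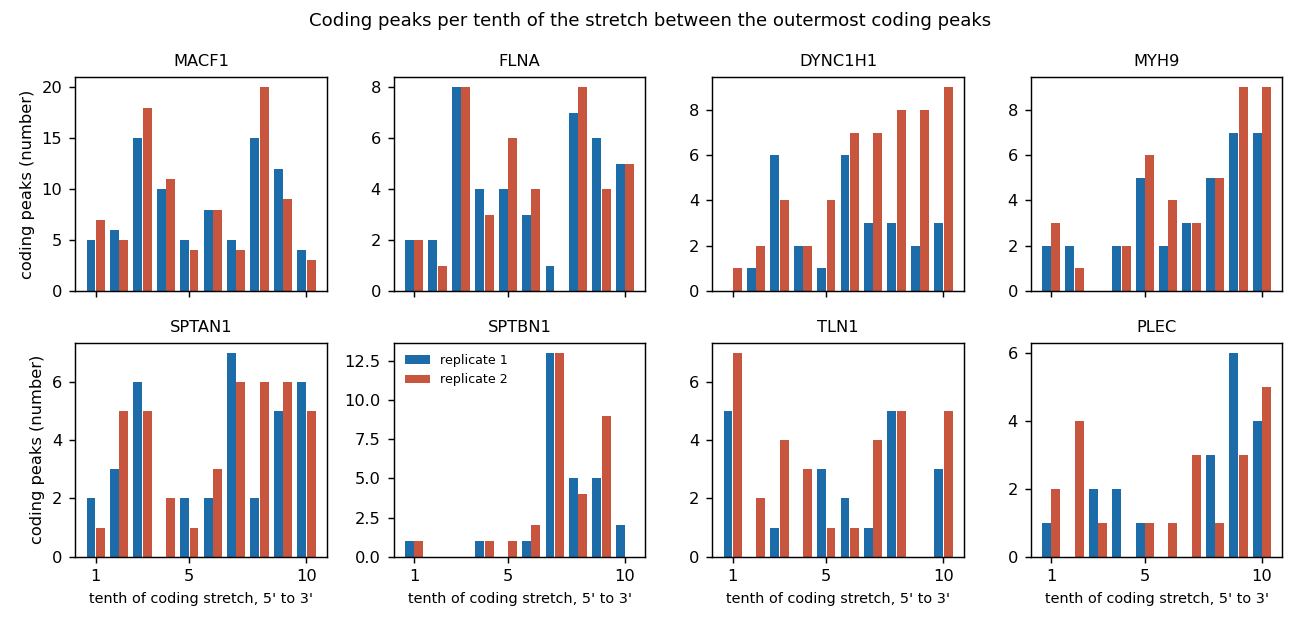
Number of coding peaks (vertical axis) in each of 10 equal parts, from 5′ to 3′, of the stretch between the outermost coding peaks of either library, for the 8 genes with coding peaks in both lists. SPTBN1 has 13 and 13 in its seventh part, and MACF1 has its highest numbers in the third and eighth parts in both replicates.

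Many peaks sat on exon edges. Of the coding peaks, 137 of 291 (47.1%, 41.4% to 52.8%) in replicate 1 and 184 of 349 (52.7%, 47.5% to 57.9%) in replicate 2 also covered some intron, against 48.0% and 51.6% over all coding peaks of the lists. Among the 8 genes with coding peaks in both lists, PLEC was the lowest with 2 of 19 and 6 of 21, closely followed in replicate 2 by DYNC1H1 with 15 of 52. TLN1 was the highest in replicate 1 with 14 of 20, and MYH9 in replicate 2 with 34 of 42. Of the peaks counted as intronic on the 9 genes, 69 of 133 (51.9%) in replicate 1 and 82 of 126 (65.1%) in replicate 2 contained some CDS, against 8.28% and 12.2% over all intron peaks. Several of the highest peaks of these genes were of this kind. The highest intron peak of SPTBN1 (chr2:54645900-54645950) had 23 and 29 tags and a CDS share of 0.46, and that of SPTAN1 (chr9:128566700-128566750) had 20 and 26 tags and a CDS share of 0.26. With every peak that contained any CDS counted as coding, the mean coding share on the 9 genes was 84.5%.

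Peaks outside CDS and introns were few. There were 6 and 7 peaks in 5′ UTRs, 14 and 18 in noncoding exons and 9 and 13 in 3′ UTRs. At the 5′ end, MYH9 had a peak at chr22:36387800-36387850 of 12 and 21 tags in the 2 libraries, and SPTAN1 the one shown above with 11.5 and 15.5 tags. In the 3′ UTR, MYH9 had 8 tags (chr22:36281950-36282000) and 11.5 tags (chr22:36281950-36282050), and SPTAN1 7.5 and 8.5 tags (chr9:128633450-128633550). These were the overlapping UTR pairs with matching class. The noncoding exon of MACF1 at chr1:39283150-39283200 had 11 and 14 tags. On the opposite strand of the 9 genes, which was not counted as sense, there were 21 antisense peaks in replicate 1 and 22 in replicate 2. They had at most 5 and 7 tags. The lists held 29034 and 23147 antisense peaks in all. Of sense and antisense peaks together these were 4.43% and 4.11% on the 9 genes, against 28.1% and 23.0% over all genes. This share falls by construction where sense peaks are many, so it does not show that antisense peaks were rare on these genes.

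Many of the coding peaks came back in the other library. Of those in replicate 1, 172 of 291 (59.1%, 95% Wilson interval 53.4% to 64.6%) were overlapped by a peak of replicate 2 by at least 1 bp on the same strand, and of those in replicate 2, 176 of 349 (50.4%, 45.2% to 55.6%) by a peak of replicate 1. Over all coding peaks the shares were 45.8% and 35.0%. Among coding peaks that reached 10 tags the shares were 62.7% (49.0% to 74.7%) of 51 in replicate 1 and 70.2% (62.2% to 77.1%) of 141 in replicate 2 for the 9 genes, and 73.8% and 66.1% over all genes. At that height the interval of the 9 genes included the value of all genes in each library, which is a description and no test. For intron peaks on the 9 genes the shares were 37.6% (29.8% to 46.1%) and 32.5% (25.0% to 41.1%), against 7.11% and 7.12% over all intron peaks. These sets are unlike, since 51.9% and 65.1% of the intron peaks on the 9 genes contained some CDS, against 8.28% and 12.2% over all. Of the 63 and 43 peaks wholly in intron, the overlapped ones were chrX:154370300-154370350 (FLNA), chr22:36385050-36385100 (MYH9) and chr8:143972900-143972950 (PLEC), each in both lists.

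Genes differed in how far their coding peaks recurred. MYH9 had the highest share in each library, 27 of 35 (77.1%, 61.0% to 87.9%) in replicate 1 and 29 of 42 (69.0%, 54.0% to 80.9%) in replicate 2. FLNA had 27 of 42 (64.3%) and 27 of 41 (65.9%). TLN1 had 14 of 20 and 15 of 32, SPTAN1 21 of 35 and 24 of 40, SPTBN1 16 of 28 and 19 of 31, and MACF1 48 of 85 and 45 of 89. DYNC1H1 had 14 of 27 but 13 of 52 (25.0%, 15.2% to 38.2%) in replicate 2. PLEC had the lowest share of the 8 genes, 5 of 19 (26.3%, 11.8% to 48.8%) and 4 of 21 (19.0%, 7.67% to 40.0%). Pooled over the 9 genes, overlapped coding peaks had median heights of 6.17 and 10.1 tags, and those without an overlap 5 and 6 tags. In replicate 1, SPTBN1 and PLEC were exceptions, with medians of 6 tags for overlapped peaks and 8.88 for the others on SPTBN1, and of 4 and 4.5 tags on PLEC.

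**Figure D4:**
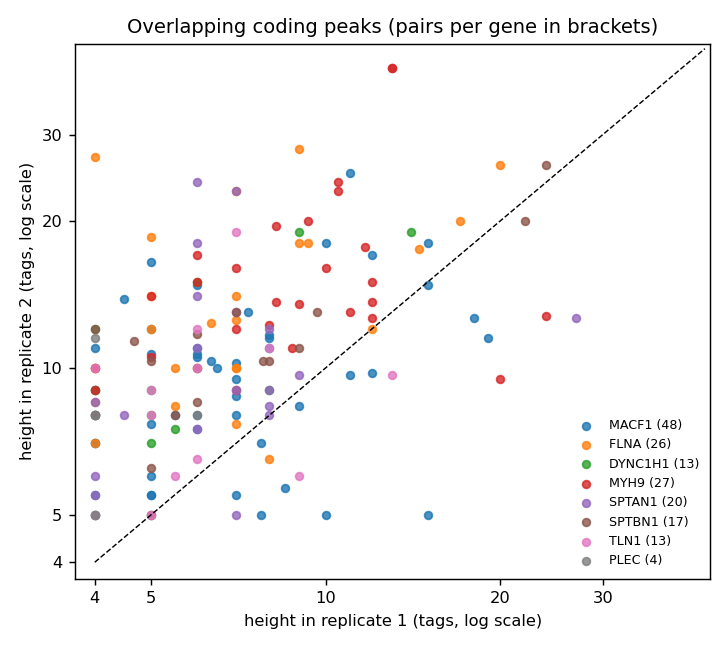
Heights of overlapping coding peaks, replicate 1 on the horizontal and replicate 2 on the vertical axis (tags, both log scales), 1 point for each of 168 pairs and a colour for each gene; the dashed line marks equal heights. Most points lie above the line, since 143 pairs were higher in replicate 2 and 20 lower.

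Overlapping coding peaks formed 168 pairs, of which 81 had the same ends in both lists. In the other pairs the peaks could differ in width, and heights were not adjusted for width. Replicate 2 was the higher in 143 pairs, replicate 1 in 20, and 5 were equal. The median ratio of replicate 2 to replicate 1 was 1.52, with quartiles of 1.21 and 2.11. The median for single genes went from 1.38 for TLN1 to 1.87 for FLNA, so the gap between libraries was present in all 8. Heights in the libraries correlated across the pairs with Pearson's r = 0.46 on the log2 scale and Spearman's rho = 0.47 (n = 168 pairs). This is a description, since peaks of a gene share its RNA level and each list is cut at its own floor. A peak below 5 tags in replicate 1 could only pair with a higher one, because the list of replicate 2 begins at 5 tags. The number of pairs higher in replicate 2 and the ratios were thus fixed in part by the floors.

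With the best pair of each gene taken by the lower of its heights, the highest shared coding peak lay on SPTBN1 at chr2:54616200-54616300 with 24 tags in replicate 1 and 26 in replicate 2. The best pair of FLNA, chrX:154353900-154353950, had 20 and 26 tags, and that of MACF1, chr1:39357350-39357400, 15 and 18. The best of DYNC1H1, chr14:102018450-102018500, had 14 and 19 tags, was wholly in CDS and was the highest coding peak of that gene in replicate 1 and equal highest in replicate 2. On MYH9 the best pair was a tie, since chr22:36327450-36327500 and chr22:36341350-36341400 each had 13 and 41 tags. Their heights differed between the libraries by far more than the median ratio. SPTAN1 had 27 and 12.7 tags near the end of its coding sequence (chr9:128633200-128633250 in replicate 1), TLN1 13 and 9.67 (chr9:35724550-35724600 in replicate 1) and PLEC 6 and 8 (chr8:143927850-143927900). SPTAN1 and TLN1 were the cases in which replicate 1 was the higher. In both, the peak of replicate 2 was the wider (chr9:128633200-128633350 and chr9:35724550-35724700), and a part of width in the height was not tested.

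High peaks also occurred in 1 library alone. The highest coding peak of SPTBN1 in replicate 1, 32 tags at chr2:54667600-54667650, and that of FLNA in replicate 1, 21 tags at chrX:154352550-154352600, had no overlapping peak in replicate 2. In all, 19 of the 51 coding peaks that reached 10 tags in replicate 1, and 42 of the 141 that did so in replicate 2, were without an overlap. Peaks that overlapped an input peak were removed by the authors for each library, and the part of that step in such cases was not tested.

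Other cytoskeletal genes were taken from lists, and an identifier was matched to a symbol by position. Among the paralogs of members that are reported here, MYH10, another nonmuscle myosin heavy chain, had 12 and 12 coding peaks. TLN2 had 2 and 1, DST, a relative of MACF1, 3 and 1, and DYNC2H1, the heavy chain of the dynein of cilia, 1 and 0. MYH9, TLN1, MACF1 and DYNC1H1 each had more coding peaks than these paralogs in both libraries.

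Of 26 partner and other cytoskeletal genes, 20 were matched. A coding peak in both lists was present on 17, against 17.1% of all identifiers, and one of at least 10 tags in both on 7, against 2.65%. Only identifiers with CDS or UTR peaks could be matched, so counts among matched genes in any of these lists are not on the same base as these shares. Of the 6 unmatched genes, 3 had CDS or UTR peaks in their interval (DCTN1 20, DYNLRB1 4 and MYL12A 1, over both lists and either strand) and are missing from these counts. The other 3 had no CDS or UTR peak in their interval. The median of the matched genes, which leaves out all unmatched ones, was 3 coding peaks in replicate 1 and 5 in replicate 2. For the members, all kept whatever their number of peaks, it was 28 and 40. The unconventional myosin MYO18A led with 29 and 30, followed by the formin DIAPH1 with 18 and 21 and by MYO9B with 13 and 24. The matched dynein subunits were at or below the median of the list in each library. The light intermediate chains DYNC1LI1 and DYNC1LI2 had 0 and 1 and 2 and 1. The intermediate chain DYNC1I2 had 1 and 2, and the light chain DYNLL1 had 3 and 2. Short coding sequences could carry high peaks, since PFN1, the actin monomer binder profilin, had 2 and 3 coding peaks with at most 31 and 43 tags.

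Actins and tubulins, the building blocks of the filaments, had few coding peaks per gene, and these numbers were not adjusted for length. The RefSeq length of TUBB4B is 2.42 kb and that of ACTG1 2.83 kb (TUBA1C 46.7 kb), against 26.1 kb for FLNA, the shortest member. Of 10 genes 8 were matched, with 0 to 8 coding peaks in replicate 1 and 0 to 6 in replicate 2. The 2 unmatched genes had no CDS or UTR peak in their interval. A coding peak in both lists was present on 5, against 17.1% of all identifiers. ACTG1 had 2 and 5 coding peaks of up to 11.5 and 45.4 tags, and TUBB4B had 8 and 6. The giant ubiquitin ligases, which are large proteins outside the cytoskeleton, came closest to the members. All 11 were matched and had coding peaks in both lists, against 17.1% of all identifiers. Their medians were 9 and 10, and UBR4 (67 and 62), HUWE1 (42 and 66) and RNF213 (47 and 58) had numbers in the range of the larger members. The coding share of their sense peaks, summed over the list, was 61.5% and 61.3%, against 64.2% and 68.0% for the members, 46.4% and 53.2% for the partners and 48.1% and 55.6% for actins and tubulins. None of these differences between lists was tested.

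**Figure D5:**
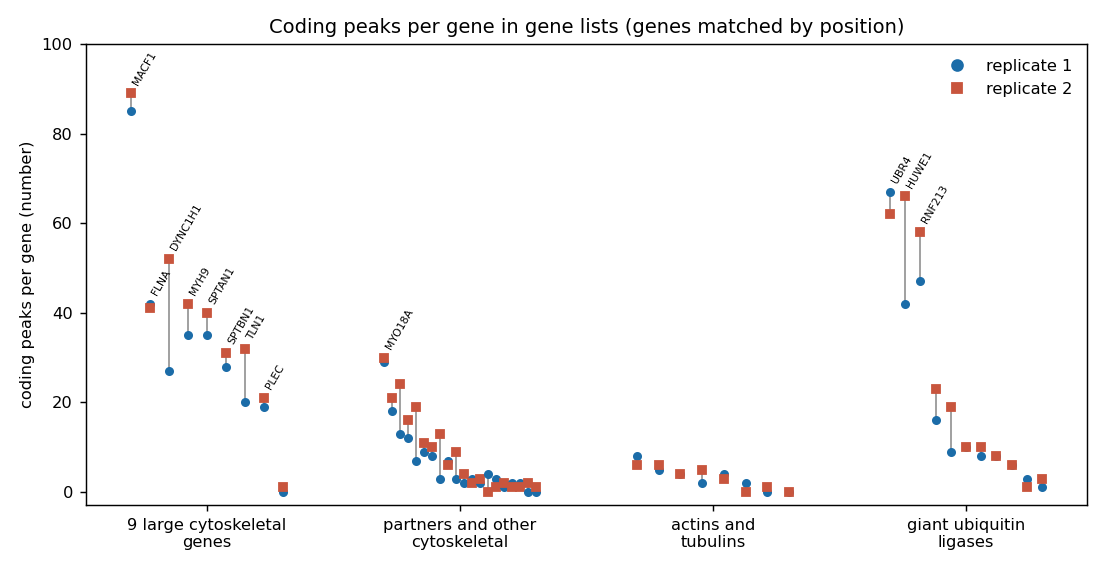
Number of coding peaks per gene (vertical axis) for the 9 genes and 3 gene lists, with replicate 1 as circles, replicate 2 as squares and a line joining the values of a gene; only genes matched by position are drawn. UBR4, HUWE1 and RNF213 reach the range of the large cytoskeletal genes, and actins and tubulins stay at 8 or below.

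Outside the 9 genes the most coding peaks were on UBR4 (mean 64.5), KMT2D (58 and 71, mean 64.5), a histone methyltransferase, and HUWE1 (mean 54), all below MACF1 in both libraries. The genes whose numbers of CDS, 5′ UTR, 3′ UTR and intron peaks in both libraries, 8 values on the log2(count + 1) scale, were nearest to those of MACF1 were HUWE1 (distance 1.78), UBR4 (2.25) and RNF213 (2.29), each of them a giant ubiquitin ligase.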

How the data were processed

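Per the labels and the paper's methods, the authors sequenced paired reads, aligned them with TopHat2 to GRCh38, kept uniquely mapped reads, called peaks in each library on its own by the ABLIRC strategy and removed peaks that overlapped input peaks; bcl2fastq is also named in the submitters' processing notes, and tool versions and the annotation are not given in the sources used here. The deposited height of each peak is a signal in tags, not adjusted for depth, and the deposited p-value served only to filter peaks under an alternative setting. Sequencing depth is unknown, because the lists carry no read totals.

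A peak took the region that held most of its length, or the first listed on a tie (7 sense peaks of the members). Positions were read as half-open intervals. All 9 identifiers were checked against RefSeq positions (GRCh38.p14). Other identifiers were named when exactly 1 protein-coding RefSeq gene contained 80% or more of their CDS and UTR peaks, with a margin of 1000 nt, which named 7334 of 7980 identifiers. The members and lists were chosen with earlier results of these data known. The T-lineage genes and the tallest intron, UTR and noncoding exon peaks were chosen after seeing the data. Some listed paralogs are not reported here, and no summary of that list is given. Named by rule were all members, the other list genes, the 3 other identifiers with the most coding peaks and the 3 nearest to MACF1.

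A genome of the build was not used here, so exon positions and the planned motif search over all peaks are not reported. The overlap and region functions were tested on simulated data. The work used Python 3.11.15, numpy 2.4.6, pandas 2.3.3, scipy 1.17.1 and matplotlib 3.10.9. The alternatives were minimum heights of 5 and 10 tags, a p value under 0.001, any CDS as coding, exonic peaks only, all peaks on the strand within the gene, other overlap rules and each replicate left out; they were recomputed for single genes as a choice made after seeing the data.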

Additional observations from a re-analysis of the deposited data

How the results depend on the processing

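No paired analysis was possible because the inputs, which share replicate numbers with the iRIP libraries, were not analysed here and a single condition remained. A minimum of 10 tags moved the most values: 136.5 sense peaks on the 9 genes as the mean of the libraries instead of 483, 10.7 coding peaks per gene instead of 35.6, a median gap of 2450 nt instead of 981.3 nt, and 50.98% of coding peaks of replicate 1 overlapped instead of 59.1%. A p value under 0.001 gave 236.5 sense peaks, 17.7 coding peaks per gene and a gap of 2187.5 nt. A minimum of 5 tags gave a coding share of 69.2% instead of 66.1% and an overlap of 66.2%. With any CDS as coding the share was 84.5% and the gap 625 nt, and with exonic peaks only the share was 90.6%. Replicate 2 against replicate 1 gave an overlap of 50.4%. For single genes a minimum of 10 tags left a mean of 0.5 coding peaks on PLEC instead of 20, and none on AHNAK. Fewer peaks pass the stricter filters by construction, and exonic peaks leave introns out of the denominator; the other causes were not tested. Leaving out 1 replicate gave 453 to 513 sense peaks, 64.2% to 68.0% coding, 32.3 to 38.8 coding peaks per gene and gaps of 937.5 to 1025 nt, with DYNC1H1 at 27 and 52 and TLN1 at 20 and 32. The numbers of genes with a coding peak in both libraries, 8 (7 at 10 tags), and with one of at least 10 tags, 7, stayed within 1 under the alternatives run. Depth is unknown, so a missing peak does not show that IGF2BP2 was not bound.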
